A study of Mus musculus with 4 samples.

Results

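The Hedgehog pathway was described here through 9 genes, Ihh, Dhh, Ptch1, Smo, Gas1, Hhip, Gli1, Gli2 and Gli3. Every probe set whose single gene symbol in the platform annotation was one of these was taken, which gave 22 probe sets, beside 45037 non-control ones on the array. The genes, 9 of 18193 with a single-symbol probe set, were chosen on earlier log2 changes between the genotypes in these same arrays, so their genotype differences are given as a description and not as a test of the pathway. The p57-/- embryos lack the cyclin-dependent kinase inhibitor p57, encoded by Cdkn1c, and the p57+/+ embryos are wild type for it. Both are of the C57BL/6 strain at embryonic day 17.5, and mesothelial and submesothelial cells were removed from the liver by surgery. There were 2 p57-/- and 2 p57+/+ samples, 1 of each genotype in each of 2 experiments as the titles give them, each read on 1 Affymetrix array. The labels do not name the knockout allele and do not say whether a sample was 1 embryo or a pool. Nor do they say that replicates came from separate litters, so a p-value reflects the scatter among these 4 samples, part of which could be technical.

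Hedgehog ligands (Shh, Ihh and Dhh) are secreted proteins that bind the receptor Ptch1. Without ligand, Ptch1 holds the membrane protein Smo inactive. Ligand binding frees Smo, and the GLI transcription factors then act as activators instead of repressors. Hhip is a membrane protein that binds the ligands and so limits the signal. Ptch1, Hhip and Gli1 are also transcribed in response to the pathway in many tissues, so each is both a component and a commonly used readout. In the adult liver, Hedgehog signalling is best known in hepatic stellate cells and in bile duct cells, mainly after injury.

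On each array 48.5% to 50.1% of the probe sets were called Present, and the lowest Present signal was 12.4 to 15.4. Cdkn1c gave signals of 7.79 and 7.28 in p57-/-, both Absent, against 10255 and 9866 in p57+/+, a drop of at least 760-fold, and all 4 arrays carried the labelled genotype. It was the only probe set of 22800 tested that passed limma's test at an adjusted p of 0.05. The arrays also differed in sex-linked transcripts. Eif2s3y, a Y-linked gene, was at 966 and 904 in p57-/-, against 2.56 (Absent) in p57+/+ replicate 1 and 1734 in p57+/+ replicate 2. Xist, the RNA of the inactive X chromosome, was at 7889 and 6412 in p57-/-, against 12199 and 86.7 in p57+/+. Each p57-/- array thus had high signals of both genes, p57+/+ replicate 1 of Xist and p57+/+ replicate 2 of Eif2s3y. The part of this difference in the results below was not tested.

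Among the tested probe sets, Hhip was the member with the largest genotype difference in the same direction in both experiments. Its brightest probe set averaged 811 ± 37.3 in p57-/- and 454 ± 23.1 in p57+/+ (SD, n = 2 each), and it was higher in p57-/- in both experiments. Other Hhip probe sets were less steady. Probe set 1421426_at had a log2 change of 0.04 in experiment 2, and 1437933_at turned from 1.92 in experiment 1 to -0.61 in experiment 2. Ptch1 and Smo lay close to the same level in the genotypes, and Gli1 and Dhh were not reliably detected. Of the other members, single probe sets of Gas1 and Gli3 were higher in p57-/- in both experiments while another probe set of each gene was not. The tested Gli2 probe set was slightly higher in both, with log2 changes of 0.16 and 0.03. None of the 13 member probe sets that could be tested passed the threshold (limma, Benjamini-Hochberg over 22800 probe sets), where 0.00439% of all probe sets passed. At an unadjusted p under 0.05 there were 3, one each of Hhip, Gas1 and Gli3, beside 7.67% of all probe sets.

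A probe set entered the test with Present calls on 2 or more of the 4 arrays of any genotype. This held for 13 of the 22 probe sets and for 7 of the 9 genes. Of the 9 probe sets left out, 6 were Absent on all 4 arrays, and none had a signal above 120 on any array. Of the 13, 6 had both p57-/- signals above both p57+/+ signals and 0 had both below, where 19.8% and 18.8% of all tested probe sets did so. In 6 of the 13 the p57-/- signal was higher in both experiments, in 1 it was lower in both and in 6 the experiments disagreed, beside 27.9%, 26.8% and 45.3% of all tested probe sets. The member choice used this contrast, and Hhip alone gives 4 of the 13 probe sets. Nothing is therefore read from these counts or from the member medians that follow. The median log2 change, p57-/- minus p57+/+, was 0.24 over the 13, with 0.40 in experiment 1 and 0.04 in experiment 2. Over all tested probe sets the median was 0.01.

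**Figure D1:**
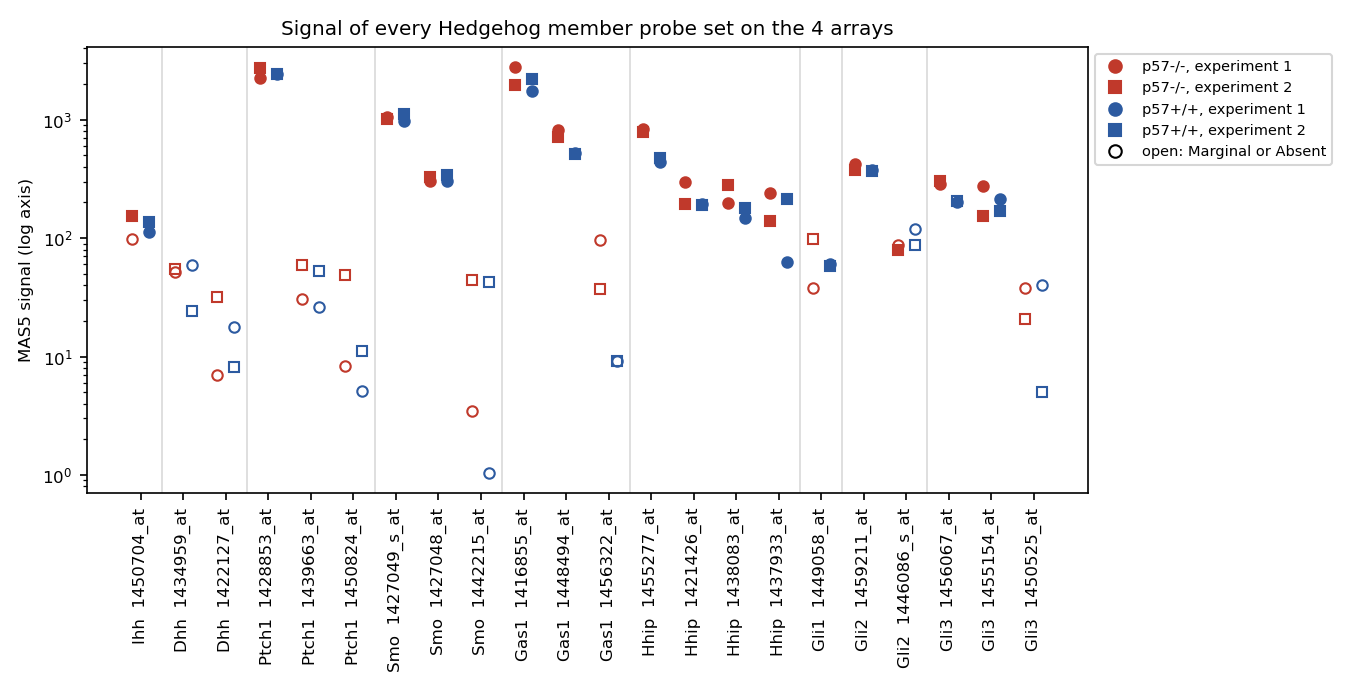
MAS5 signal (log axis) of all 22 member probe sets, with p57-/- arrays in red to the left of p57+/+ arrays in blue. Circles are experiment 1, squares experiment 2, and open symbols were called Marginal or Absent. The brightest Hhip probe set lies at 837 and 785 in p57-/- and at 438 and 471 in p57+/+, while Ptch1 1428853_at lies between 2247 and 2728 on all arrays.

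The 250 bases before the transcription start are shown for Hhip and Ptch1, since both are known target genes of the pathway and their signals behaved differently here. The sequences are RefSeq promoters of the GRCm38.p6 assembly, read 5′ to 3′ on the strand of the gene, the minus strand for both. The Hhip stretch is chr8:80058009-80058258 and the Ptch1 stretch is chr13:63565736-63565985. Capitals mark GC boxes, the letters GGGCGG or their reverse complement CCGCCC.
Hhip: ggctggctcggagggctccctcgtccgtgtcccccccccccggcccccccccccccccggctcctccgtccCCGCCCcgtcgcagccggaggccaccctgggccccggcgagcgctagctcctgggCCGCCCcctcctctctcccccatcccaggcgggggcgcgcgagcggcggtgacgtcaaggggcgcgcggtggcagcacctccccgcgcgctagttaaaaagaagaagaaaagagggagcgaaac
Ptch1: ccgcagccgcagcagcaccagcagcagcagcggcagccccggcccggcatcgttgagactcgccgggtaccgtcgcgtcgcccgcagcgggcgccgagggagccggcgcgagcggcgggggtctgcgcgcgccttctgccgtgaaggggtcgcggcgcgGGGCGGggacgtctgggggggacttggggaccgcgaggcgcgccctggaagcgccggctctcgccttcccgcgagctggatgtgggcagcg
Hhip has 2 GC boxes and Ptch1 has 1, and 32.7% of all 32851 promoter stretches of this length have at least 1. G and C make up 76% of the Hhip stretch and 78.4% of the Ptch1 stretch, where the median over all stretches is 52.4%. The GLI binding letters GACCACCCA were searched on both strands, as was CCACCCA, which lies within them. Neither was found in the stretches of the 8 members that the RefSeq table holds, Hhip and Ptch1 included. Over all stretches, 0.225% hold the longer letters and 8.11% the shorter ones. A missing match says only that these letters are not in this window.

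Of the ligands, Ihh, which drives cartilage growth and gut development, had 1 probe set near the limit of detection. Its signal was 98.1 (Absent) and 155 in p57-/-, against 113 and 136 in p57+/+. The genotypes overlapped, with p57-/- lower in experiment 1 and higher in experiment 2, and the log2 change was -0.01 (SE 0.33, 95% interval -0.74 to 0.73). Dhh, the ligand made by Schwann cells and testis, was called Absent on all 4 arrays with both of its probe sets. The brighter of these gave 51.7 and 54.4 in p57-/-, against 59.6 and 24.2 in p57+/+. Shh, which is no member, was Present on no array with either of its probe sets. The cells in which Ihh and Dhh are best known were looked for by their markers. In the Schwann cell list, Sox10, Foxd3 and Cdh19 were Absent on all 4 arrays, and Erbb3, a receptor gene of many epithelia too, was the 1 tested gene, at 2069 and 1639 in p57-/- and at 1173 and 1373 in p57+/+. In the gut and pancreas list of 6 genes, Cdx2, Pdx1, Ptf1a and Cpa1 were Absent on all 4 arrays. The other genes of that list were detected: the fatty acid binding protein gene Fabp2 was at 181 and 174 in p57-/-, against 279 and 329 in p57+/+, and the villin gene Vil1 was at 81.5 and 104 in p57-/-, against 18.0 and 54.0 (both Absent) in p57+/+. In the cartilage list of 6 genes, Col2a1, Col9a1, Matn1 and Col10a1 were Absent on all 4 arrays, and Acan was Present on p57-/- replicate 1 alone. Sox5, a transcription factor gene, was the 1 tested gene of that list, at 238 and 130 in p57-/- and at 192 and 154 in p57+/+. The part of these cells in the Ihh and Dhh signals was not tested.

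Ptch1, the ligand receptor and a target gene, was well detected by 1 of its 3 probe sets. Probe set 1428853_at gave 2247 and 2728 in p57-/-, against 2411 and 2431 in p57+/+. The p57+/+ signals lay between the p57-/- signals. The log2 change was 0.03 (SE 0.14), and its 95% interval ran from -0.28 to 0.34, which is 0.825 to 1.27 on the fold scale. The other 2 probe sets of Ptch1 were Absent on all 4 arrays.

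Smo, the transducer that Ptch1 restrains, had 2 tested probe sets, both Present on all 4 arrays. Probe set 1427049_s_at gave 1059 and 1014 in p57-/-, against 981 and 1117 in p57+/+. Probe set 1427048_at gave 302 and 330 in p57-/-, against 302 and 341 in p57+/+. The groups overlapped with both. The log2 changes were -0.01 (SE 0.15, 95% interval -0.35 to 0.32) and -0.02 (SE 0.20, 95% interval -0.47 to 0.42). The remaining probe set of Smo was Absent throughout.

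Gas1 encodes a membrane-anchored co-receptor that helps ligand reach Ptch1, and its probe sets disagreed. Probe set 1448494_at gave 823 and 716 in p57-/-, against 526 and 513 in p57+/+. Both p57-/- signals lay above both p57+/+ signals, with log2 changes of 0.64 in experiment 1 and 0.48 in experiment 2. The fitted change was 0.56 (SE 0.16, limma adjusted p = 0.549). The brighter probe set 1416855_at gave 2767 and 1945 in p57-/-, against 1739 and 2209 in p57+/+. With this one the genotypes overlapped, with log2 changes of 0.67 in experiment 1 and -0.18 in experiment 2. In experiment 1 the probe sets thus gave nearly the same difference, and in experiment 2 they differed in sign. The remaining probe set was Absent on all 4 arrays, so it gives no fold.

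Hhip, the ligand-binding inhibitor, was the only member with all of its probe sets Present on all 4 arrays. Probe set 1455277_at gave 837 and 785 in p57-/-, against 438 and 471 in p57+/+. The groups were well apart, since the arrays of a genotype differed from each other by at most 1.07-fold. Within experiments the p57-/- signal was 1.91 times the p57+/+ signal in experiment 1 and 1.67 times in experiment 2. The fitted log2 change was 0.84 (SE 0.16, 95% interval 0.47 to 1.20), a 1.79-fold higher signal, and it did not pass (limma adjusted p = 0.519). By its unadjusted limma p this probe set ranked at 18 of the 22800, and the other Hhip probe sets at 2658, 6895 and 6987. Members were chosen on this contrast, so the ranks are a description only. With 1 array left out, the log2 change of 1455277_at ran from 0.78 to 0.89. Since the groups did not overlap, the sign of these changes was fixed in advance.

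The other 3 probe sets of Hhip gave smaller or less steady differences. Probe set 1438083_at gave 197 and 280 in p57-/-, against 149 and 179 in p57+/+, with log2 changes of 0.40 in experiment 1 and 0.65 in experiment 2. Probe set 1421426_at gave 295 and 195 in p57-/-, against 192 and 190 in p57+/+. It was higher in experiment 1, at 0.62, and nearly level in experiment 2, at 0.04, although the groups did not overlap. Probe set 1437933_at gave 238 and 139 in p57-/-, against 62.8 and 213 in p57+/+. Here the p57+/+ arrays differed 3.38-fold from each other, more than the genotypes did, and the sign turned from 1.92 in experiment 1 to -0.61 in experiment 2. Experiment 1 thus had a higher p57-/- signal with all 4 probe sets, and experiment 2 with 3 of 4. The fitted changes of these 3 were 0.53 (SE 0.27), 0.33 (SE 0.26) and 0.65 (SE 0.51).

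**Figure D2:**
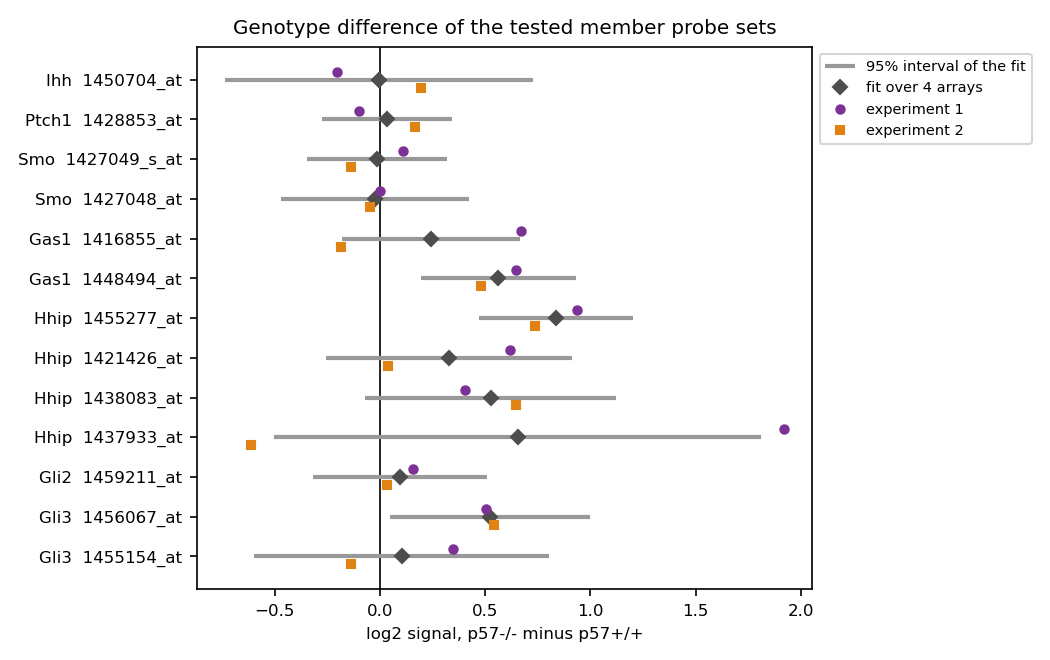
Log2 signal difference, p57-/- minus p57+/+, of the 13 tested member probe sets. Diamonds are the fit over 4 arrays with its 95% interval (grey), circles are experiment 1 and squares experiment 2. For Hhip 1455277_at the experiments give 0.94 and 0.74, while for Hhip 1437933_at they give 1.92 and -0.61.

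The GLI transcription factors carry the signal to the genome. Gli1, an activator whose own transcription is the usual readout of an active pathway, was Present on 1 of 4 arrays and was not tested. Its probe set gave 38.0 (Absent) and 97.9 (Marginal) in p57-/-, against 60.1 (Absent) and 58.6 (Present) in p57+/+. A genotype difference in Gli1 was not detectable at these signals. Gli2, the main activator of the first response to ligand, gave 419 and 378 in p57-/-, against 376 and 369 in p57+/+, with probe set 1459211_at. The groups did not overlap but were close, with a log2 change of 0.09 (SE 0.18, 95% interval -0.32 to 0.51). Its other probe set, 1446086_s_at, was Present on 1 array and gave 87.6 and 79.0 in p57-/-, against 120 and 87.7 in p57+/+.

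Gli3, which acts mainly as a repressor, had 2 tested probe sets that differed. Probe set 1456067_at gave 288 and 301 in p57-/-, against 203 and 207 (Absent) in p57+/+. Its log2 changes were 0.50 in experiment 1 and 0.54 in experiment 2, with a fitted change of 0.52 (SE 0.21, limma adjusted p = 0.628). Probe set 1455154_at gave 274 and 152 in p57-/-, against 216 and 168 in p57+/+. Its groups overlapped, and the sign turned from 0.34 in experiment 1 to -0.14 in experiment 2. Its fitted change was 0.10 (SE 0.31). The remaining Gli3 probe set was Present on no array.

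A wider list of 50 genes of the pathway and its known targets was read with the brightest tested probe set per gene. Of these, 33 were tested, and 0 passed in limma, where 0.00858% of tested genes did. At an unadjusted p under 0.05 there were 5, where 8.77% of all tested genes were. Both p57-/- signals lay above both p57+/+ signals for 6 genes and below them for 8, where 21.7% and 19.0% of 11656 tested genes did so. The median log2 change was -0.01 over the list and 0.02 over all tested genes. These counts include the members, which were chosen on this contrast. Of the 26 tested genes other than members, 3 had an unadjusted limma p under 0.05. Both p57-/- signals lay above both p57+/+ signals for 3 of the 26 and below them for 8, and their median was -0.04.

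The genes of ligand processing and release had 3 tested of 5, with Disp1, which releases the lipid-modified ligand, furthest from 0. Disp1 gave 194 and 192 in p57-/-, against 254 and 248 in p57+/+. It was lower in both experiments, with a fitted log2 change of -0.38 (SE 0.22). Its other tested probe set was at 0.06. Among the 6 tested receptors and co-receptors, 5 were above 0 and 1 was below, with a median of 0.02. The co-receptor gene Cdon was at 0.06 (SE 0.19), with overlapping groups. Of 10 tested cytoplasmic regulators, 5 were above 0 and 5 below, with a median of 0.01. Kif3a, a motor subunit that cilia need, was at 0.34 (SE 0.23), with -0.02 in experiment 1 and 0.69 in experiment 2, and its 3 tested probe sets disagreed in sign. Gpr161, a ciliary receptor that restrains the pathway, was at -0.43 (SE 0.39).

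Of 10 tested genes known as Hedgehog targets in other tissues, 3 had a log2 change above 0 and 7 below, where 6132 of 11656 tested genes lay above 0 and 5524 below. Their median was -0.43, beside 0.02 over all tested genes, and 0 passed. At an unadjusted p under 0.05 there were 3, where 8.77% of all tested genes were. Bmp4, a secreted growth factor, gave 369 and 313 in p57-/-, against 270 and 241 in p57+/+. Its fitted log2 change was 0.41 (SE 0.21). Ccnd2, a D-type cyclin, gave 1324 and 873 in p57-/-, against 2052 and 2425 in p57+/+. Its fitted log2 change was -1.05 (SE 0.20, limma adjusted p = 0.519), and each of its 6 tested probe sets lay below 0. Several of the 7 lower genes, the cyclin genes and Foxm1 among them, are also general genes of the cell cycle. Ptch1 and Hhip are target genes too, but were counted under other roles and not among the 10. With their brightest probe sets they were at 0.03 and 0.84.

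**Figure D3:**
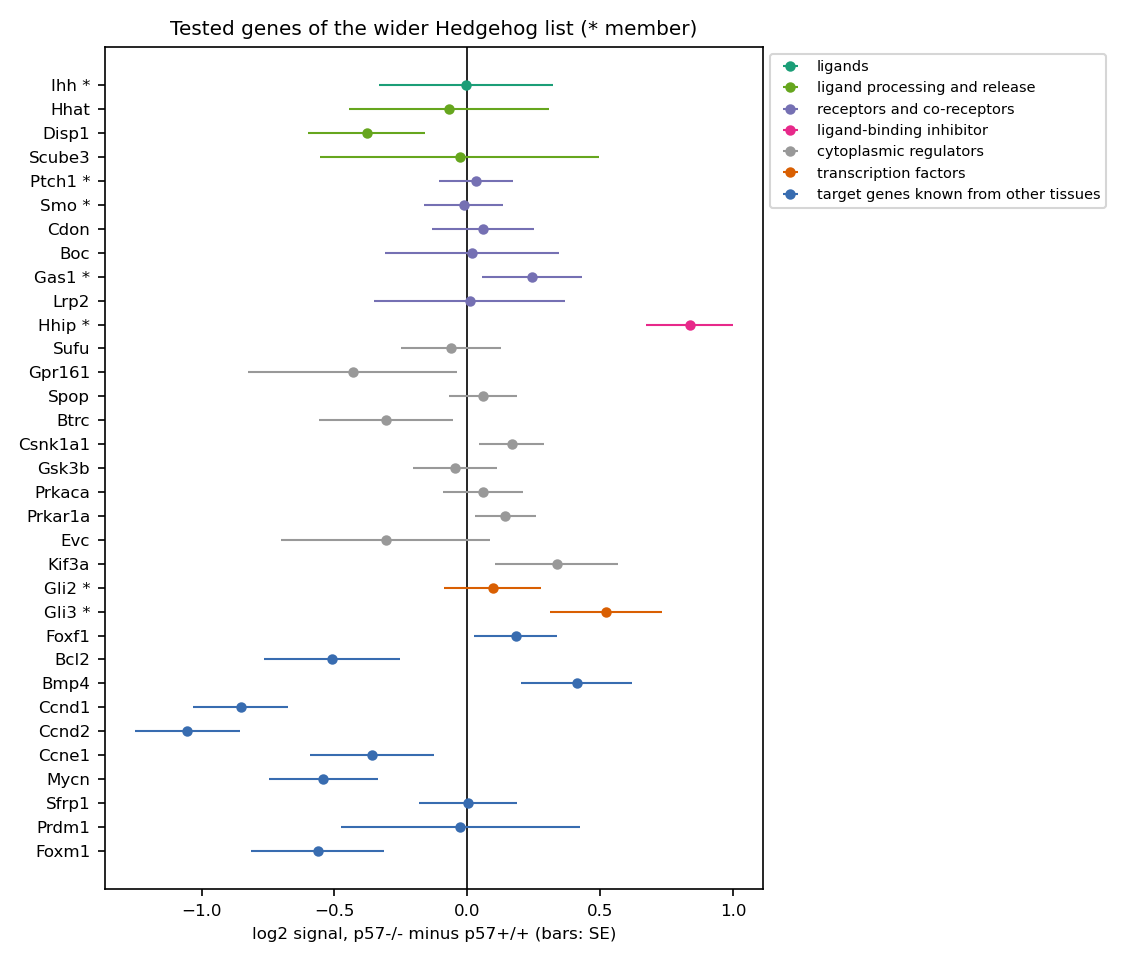
Log2 signal difference, p57-/- minus p57+/+, with its SE, of the 33 tested genes of the wider Hedgehog list, each by its brightest tested probe set and coloured by role. Hhip at 0.84 and Ccnd2 at -1.05 lie at the ends, and the receptors lie between -0.01 and 0.24.

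The samples are mixtures of cell types, and in such samples fewer cells of a type cannot be told apart from less RNA per cell. Hepatocyte RNA was abundant, with Alb at 56818 and 57134 in p57-/-, against 47263 and 65566 in p57+/+. Median log2 changes in experiments 1 and 2 were 0.19 and -0.20 for hepatocyte markers and 0.30 and -0.06 for bile duct markers. They were 0.53 and -0.15 for endothelium and 0.23 and -0.19 for macrophages. Hepatic stellate cell markers had 9 tested genes of 12, with a summed signal of 26483 and 24044 in p57-/-, against 21506 and 22291 in p57+/+. Most of each sum came from Reln, at 16376 and 15974 in p57-/-, against 13342.5 and 14714 in p57+/+. The median log2 change of the 9 genes was 0.30 in experiment 1 and 0.08 in experiment 2. Both p57-/- signals were above both p57+/+ signals for 4 of the 9 and below for 2, where 21.7% and 19.0% of all tested genes were so. The transcription factor gene Hand2 was at 0.46 and 0.55 in the experiments, and the retinol acyltransferase gene Lrat at 0.51 and 0.16, while the pericyte gene Rgs5 was at -0.39 and -1.44. Desmin, a defining stellate cell marker, was Absent on all 4 arrays with its brightest probe set.

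Markers of mesenchyme and fibroblasts had 9 tested of 12 and a summed signal of 85549 and 77071 in p57-/-, against 66005 and 74214 in p57+/+. The largest part came from Col3a1, at 30594 and 30166 in p57-/-, against 24421 and 29083 in p57+/+. The median of the 9 genes was 0.33 in experiment 1 and 0.05 in experiment 2. Mesothelial markers were all 12 tested, with 13722 and 16211 in p57-/-, against 11712 and 14804 in p57+/+, and medians of 0.21 and -0.08. Erythroid markers had 7 tested genes, all 7 lower in p57-/- without overlap, where 19.0% of all tested genes were, with 71902 and 99274 in p57-/-, against 109899 and 115476 in p57+/+. None of these marker genes passed. Both p57-/- signals were above both p57+/+ signals for 4 mesenchyme genes and below for 1. For mesothelial genes the counts were 4 and 2. Over all tested genes the shares were 21.7% and 19.0%. Single markers went both ways. In the experiments, the matrix gene Dcn was at 0.85 and 0.20 and the mesothelial transcription factor gene Wt1 at 0.83 and 0.45. The collagen gene Col1a1 was at -0.25 and -0.21, and the mesothelial gene Muc16 at -0.27 and -0.86. The part of these shifts in the Hhip, Gas1 and Gli3 differences was not tested.

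**Figure D4:**
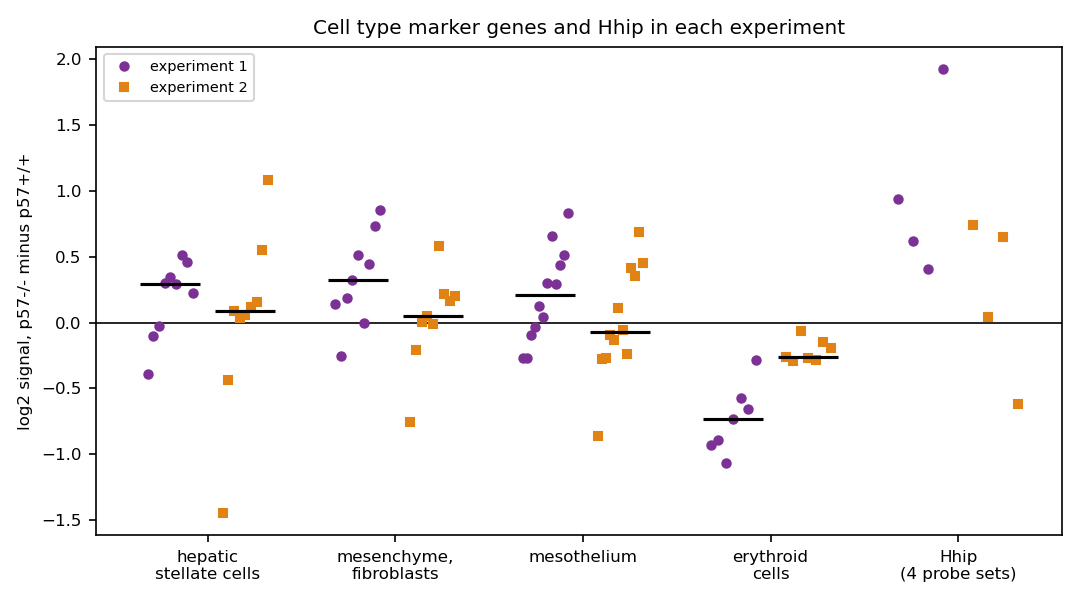
Log2 signal difference, p57-/- minus p57+/+, within experiment 1 (circles) and experiment 2 (squares), for the tested marker genes of 4 cell types and for the 4 Hhip probe sets. Black lines are list medians, which for stellate cells are 0.30 and 0.08 and for erythroid cells -0.74 and -0.26.

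The genes whose pattern over the 4 arrays was most like that of Hhip were Plau, Rassf2, Dmac2, Smyd3 and Arrdc4. Likeness was the distance between log2 signals centred on their mean over the arrays, among 11655 other tested genes, and it ran from 0.06 for Plau to 0.15 for Arrdc4. Plau, which encodes the urokinase plasminogen activator, gave 101 and 96.7 in p57-/-, against 55.8 and 59.5 in p57+/+. Rassf2, a RAS-association domain gene, gave 511 and 456 in p57-/-, against 259 and 258 in p57+/+. Dmac2 was Absent on both p57+/+ arrays and Arrdc4 on p57+/+ replicate 2. None of the 5 passed. The search was for the Hhip pattern, so the higher p57-/- signal of these genes was fixed in advance. Among the members, Gli3 was nearest to Hhip, at a distance of 0.34 and rank 92, and Ihh the farthest, at 1.002 and rank 7977. The members were themselves chosen on this contrast, so these ranks are a description only. Each gene was read with its brightest tested probe set, 1455277_at for Hhip and 1456067_at for Gli3, the latter Absent on p57+/+ replicate 2. The other tested Gli3 probe set, 1455154_at, had log2 changes of 0.34 in experiment 1 and -0.14 in experiment 2.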

How the data were processed

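Biotin-labelled cRNA from 250 ng of total RNA per sample was hybridised to single-colour arrays, per the labels' protocols. The authors deposited a MAS5 signal intensity per probe set on a linear scale and a detection p-value with a Present, Marginal or Absent call, per the file headers. The submitters' processing notes name MAS5, whose version and settings were not given in the sources used here. After trimming 2% at each end, the mean signal was 500.003 on all 4 arrays, so scaling to a common target hides any change in total RNA.

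Signals were log2 transformed without a pseudocount. Probe sets Present on at least 2 of 4 arrays were compared between genotypes by limma (version 3.58.1, under R 4.3.3) using lmFit and a trended eBayes, without a block, two-sided, with Benjamini-Hochberg adjustment over 22800 probe sets and a threshold of 0.05. The procedure was tested on simulated data. Intervals are limma's 95% intervals. Symbols came from the platform annotation, in which 34945 probe sets had 1 symbol. The number of arrays limits the precision.

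Members and lists were chosen with earlier results of these data known. Beside all members, Cdkn1c and the sex-linked genes, the genes named are the tested genes of largest change per role and direction in the wider list, and the 5 genes most like Hhip. Marker genes, Shh and Foxm1 were named after their values were seen. Alternatives covered the detection filter, quantile normalization, a pseudocount, the variance trend, the experiment as a block, the deposited value table, the probe set per gene, and each array left out.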

Additional observations from a re-analysis of the deposited data

How the results depend on the processing

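No member probe set passed under any alternative run, and the brightest Hhip probe set stayed at a log2 change of 0.78 to 0.89, with adjusted p from 0.0725 (experiment as a block) to 0.924 (without p57+/+ replicate 2). With the experiment as a replicate block, limma called 10 probe sets higher and 20 lower in p57-/-, against 0 and 1 without it, and 2 genes of the wider list, Ccnd1 and Ccnd2. Arrays of the same number did not deviate together (correlation 0.00460 over probe sets), and the main fit used no block. The labels do not say what an experiment shares. The differences within an experiment therefore pair the arrays by their titles alone. Limited to probe sets Present on all 4 arrays, limma called 0 lower, since Cdkn1c was then not tested. The median of the wider list was 0.025 without a detection filter, 0.017 with probe sets Present on all 4 arrays, 0.033 with quantile normalization and -0.028 when each gene's probe sets were averaged. The Ihh change turned to 0.037 with quantile normalization and 0.0011 with a pseudocount of 32. With 1 array left out, the lone array being assumed to vary like the other genotype, limma called 1 to 98 probe sets higher and 1 to 123 lower, with 98 and 123 without p57-/- replicate 2, 1 and 11 without p57-/- replicate 1, 4 and 1 without p57+/+ replicate 1 and 6 and 3 without p57+/+ replicate 2. It called 0 to 1 genes of the wider list, whose median ran from -0.097 to 0.024. Member changes that turned sign then ran from -0.34 to 0.32 for Ihh, from -0.11 to 0.17 for Ptch1, from -0.11 to 0.080 and from -0.11 to 0.063 for Smo, from -0.011 to 0.50 for Gas1 1416855_at, from -0.23 to 1.53 for Hhip 1437933_at and from -0.32 to 0.52 for Gli3 1455154_at. The causes were not tested. Gli1 and Dhh, with at most 1 Present call per probe set, were compared only without a detection filter, where 0 of the 22 member probe sets passed in limma.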
